A study of Rattus norvegicus with 6 samples.

Results

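Transcripts of 10 genes that make, regenerate or use glutathione were compared between cultured rat heart cells given an siRNA against Mt2 and cells given a control siRNA. The genes were chosen by symbol, with earlier results of these data known, as a working set of glutathione synthesis, peroxidase and transferase genes (Gclc, Gclm, Gss, Gsr, Gpx1, Gpx4, Gstp1, Gsta4, Gstm1 and Mgst1). Each of the 10 had a row among the 18237 rows of the gene counts. RNA sequencing was done on 3 libraries labelled siMt2 and 3 labelled siNT. The cells are labelled NRVM, which usually stands for neonatal rat ventricular myocytes; the growth protocol instead describes an embryonic source. They were kept in DMEM with fetal bovine serum and antibiotics. Both groups share a protocol text that also names dexamethasone, isobutylmethylxanthine and insulin, without stating that these cells received them. The labels do not give the siRNA sequences, their dose or the time after transfection. They also do not say that replicates are separate cultures, so p-values describe spread between libraries that may be purely technical.

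Glutathione is a tripeptide of glutamate, cysteine and glycine and the main soluble thiol of animal cells. Glutamate-cysteine ligase, a dimer of a catalytic and a modifier subunit, makes the dipeptide precursor and sets the pace of synthesis, and glutathione synthetase adds glycine. Peroxidases spend glutathione to reduce peroxides, transferases attach it to reactive compounds, and glutathione reductase recycles the oxidised form with NADPH. In heart muscle the system limits oxidative damage during ischemia and reperfusion, and many of its genes are targets of the transcription factor NRF2. Metallothionein, the product of the targeted gene, is a cysteine-rich protein.

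Gene counts totalled 2859759 to 6817777 in the libraries labelled siMt2 and 4216586 to 6567793 in the siNT libraries, and levels are given as CPM, counts scaled to a common library total (here by TMM). Mt2a, the rat Mt2 transcript, averaged 99.9 ± 37.3 CPM in the libraries labelled siMt2 and 118 ± 45.0 CPM in the siNT libraries (SD, n = 3 each; exact two-sided permutation p = 0.5, where 0.1 is the smallest possible), so no lower level could be shown and groups are named by label. Of 12 cardiomyocyte markers, 9 were found and only 1, Tnnt2, was frequent enough to test. Tnnt2 was higher in the libraries labelled siMt2. Over all libraries together, Myh6, Actc1, Tnni3, Mybpc3, Myl7 and Nppb had 2 to 9 counts, Ryr2 had 24 and Pln had 51. Of 9 fibroblast markers tested, Dcn and Lum met the filter on low counts in the libraries labelled siMt2 only and are not counted. Among the other 7, 4 were higher and 1 lower. All 10 fibroblast markers, Dcn and Lum included, summed to 19491 to 23120 CPM in the libraries labelled siMt2 and 18896 to 18978 CPM in the siNT libraries. Pdgfra had 2 counts in all. Smooth muscle and pericyte markers were higher in 6 of 8 and lower in 1, with sums of 4283 to 4389 CPM (labelled siMt2) and 2473 to 2492 CPM (siNT). The fibroblast and smooth muscle calls stand beside 25.8% of all genes tested called higher and 25.1% called lower. Summed endothelial markers lay at 33.5 to 40.9 CPM (labelled siMt2) and 76.3 to 85.1 CPM (siNT). Most of this came from Eng, while Vwf did not pass (edgeR adjusted p = 0.398). Leukocyte markers summed to 14.7 to 18.7 CPM (labelled siMt2) and 23.2 to 27.9 CPM (siNT), mostly from Cd14. Adipocyte markers summed to 0.584 to 2.13 CPM (labelled siMt2) and 2.76 to 4.06 CPM (siNT). Schwann cell and neuronal markers summed to 14.4 to 18.9 CPM (labelled siMt2) and 5.98 to 7.05 CPM (siNT). The adipocyte gene Lipe met the filter on low counts in the siNT libraries only, and the neuronal gene Dbh in the libraries labelled siMt2 only. The sums that hold Lipe and Dbh are therefore not read as differences. Tubb3, also in the neuronal list, was at the filter's minimum in 3 libraries labelled siMt2 and 2 siNT libraries. It averaged 9.01 CPM (labelled siMt2) and 3.07 CPM (siNT) and was called higher (edgeR adjusted p = 0.000441). The leukocyte antigen gene Ptprc and the adipocyte gene Plin1 had 2 and 4 counts in all. The part of these markers in the results below was not tested, and in bulk RNA fewer cells of a type cannot be told apart from less RNA per cell.

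Both subunits of glutamate-cysteine ligase, the reductase and a pi-class and a mu-class transferase rose, and both selenium-dependent peroxidases fell. All 10 genes passed the filter on low counts, each with every library of both groups at its minimum of 2.04 CPM. In edgeR's quasi-likelihood test with Benjamini-Hochberg adjustment over 11726 genes (threshold 0.05), 5 were higher in the libraries labelled siMt2 (Gclc, Gclm, Gsr, Gstp1 and Gstm1), 2 were lower (Gpx1 and Gpx4) and 3 did not pass (Gss, Gsta4 and Mgst1). The same 7 genes had groups that did not overlap. Of all genes tested, 50.9% passed (25.8% higher and 25.1% lower) and 57.6% had groups that did not overlap, so calls were common everywhere. The 10 genes were chosen with earlier results of these data known, so 7 of 10 is given beside these shares without a test. The median log2 fold change (libraries labelled siMt2 over siNT) was 0.41 over the 10 genes and 0.00049 over all genes tested. Summed over the 10 genes, levels were 1772 ± 32.8 CPM in the libraries labelled siMt2 and 1107 ± 32.2 CPM in the siNT libraries (SD, n = 3 each), but Gstp1 carried most of this difference. Without Gstp1 the other 9 summed to 706 ± 11.2 CPM in the libraries labelled siMt2 and 665 ± 18.4 CPM in the siNT libraries, a ratio of 1.06.

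**Figure D1:**
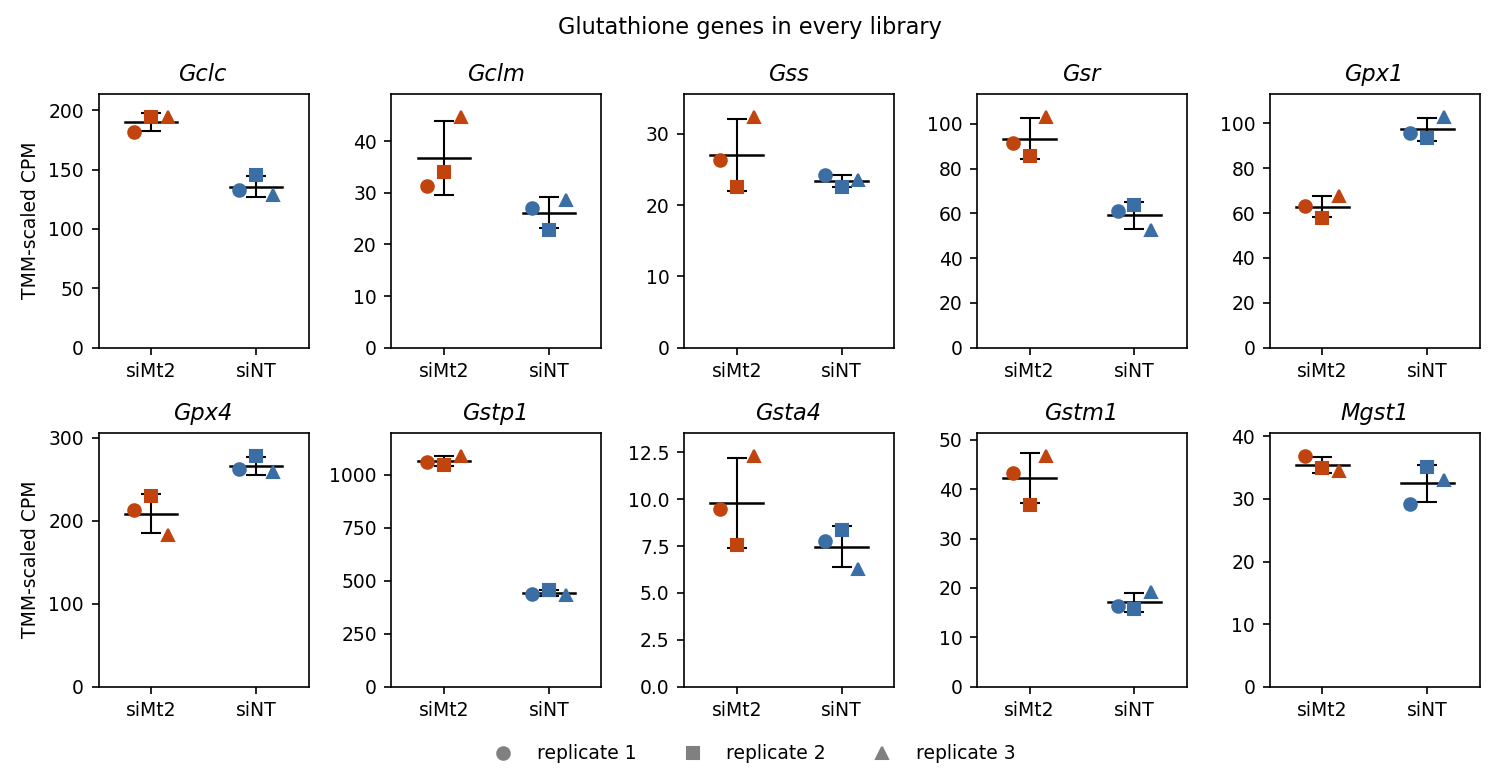
TMM-scaled CPM of each of the 10 genes in the 3 libraries labelled siMt2 (left, red) and the 3 siNT libraries (right, blue). Symbols mark replicates, horizontal lines the group means and bars the SD; each vertical axis starts at 0 and has its own scale. The groups are apart for Gclc, Gclm, Gsr, Gpx1, Gpx4, Gstp1 and Gstm1 and overlap for Gss, Gsta4 and Mgst1.

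Both subunits of glutamate-cysteine ligase rose by similar amounts. Gclc, the catalytic subunit gene, had 182, 195 and 194 CPM in the libraries labelled siMt2 and 132, 146 and 129 CPM in the siNT libraries. The lowest library labelled siMt2 was 1.25 times the highest siNT library, and the fitted difference was 1.40-fold (log2 fold change 0.49, SE 0.06, edgeR adjusted p = 1.18e-06). Gclm, the modifier subunit gene, had 31.2, 34.1 and 44.7 CPM in the libraries labelled siMt2 and 27.1, 22.7 and 28.7 CPM in the siNT libraries. Its groups came within 1.09-fold of each other: siMt2 replicate 3 stood apart, and siMt2 replicate 1 lay just above the highest siNT library. The fitted difference was 1.35-fold (log2 fold change 0.44, SE 0.14, edgeR adjusted p = 0.0116), and without siNT replicate 2, the lowest library, Gclm missed the threshold (log2 fold change 0.35, adjusted p = 0.068). Reads of Gclm per read of Gclc averaged 0.192 ± 0.0327 in the libraries labelled siMt2 and 0.194 ± 0.0345 in the siNT libraries (SD, n = 3 each), a ratio that depends on transcript lengths and is given only to compare libraries. The mean ratios of the groups differed by less than either SD.

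Glutathione synthetase did not pass, while the reductase did. Gss, which completes the tripeptide, had 26.3, 22.5 and 32.4 CPM in the libraries labelled siMt2 and 24.2, 22.5 and 23.4 CPM in the siNT libraries. The siNT values fell inside the range of the libraries labelled siMt2 (log2 fold change 0.18, 95% interval -0.10 to 0.47, edgeR adjusted p = 0.282), so a change between 0.930-fold and 1.39-fold was compatible with the data. Gsr, which regenerates reduced glutathione, had 91.2, 85.4 and 103 CPM in the libraries labelled siMt2 and 60.9, 63.8 and 52.4 CPM in the siNT libraries. The closest libraries of the groups were 1.34-fold apart, and the fitted difference was 1.58-fold (log2 fold change 0.66, SE 0.09, edgeR adjusted p = 5.06e-06). In the RefSeq annotation of assembly GRCr8, used for gene names and neighbours only, Gss and Gsr overlap other genes, and the strand setting of the counting is not stated, so reads of the overlaps may count for either gene.

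The peroxidase genes went the other way. Gpx1 encodes the cytosolic and mitochondrial selenoenzyme that reduces hydrogen peroxide, and it had 63.1, 57.9 and 67.6 CPM in the libraries labelled siMt2 and 95.6, 93.5 and 103 CPM in the siNT libraries. Every library labelled siMt2 lay below every siNT library, the nearest at 0.724 of the siNT value, and the level fell to 0.642 of that in siNT (log2 fold change -0.64, SE 0.08, edgeR adjusted p = 1.40e-06). Gpx4 encodes the selenoenzyme that reduces lipid hydroperoxides in membranes and restrains ferroptosis. It had 214, 229 and 183 CPM in the libraries labelled siMt2 and 262, 279 and 258 CPM in the siNT libraries. The groups did not overlap, siMt2 replicate 3 was the lowest library, and the level fell to 0.789 of that in siNT (log2 fold change -0.34, SE 0.07, edgeR adjusted p = 0.000262). The other peroxidases tested were Gpx7 and Gpx8, enzymes of the endoplasmic reticulum that carry cysteine in place of selenocysteine. Gpx8 had 176, 181 and 200.4 CPM in the libraries labelled siMt2 and 258, 243 and 247 CPM in the siNT libraries, all 3 below the siNT range (log2 fold change -0.43, SE 0.06, edgeR adjusted p = 2.04e-06). Gpx7 was higher at 33.4 ± 2.84 CPM in the libraries labelled siMt2 and 25.7 ± 2.86 CPM in the siNT libraries (log2 fold change 0.37, SE 0.12, edgeR adjusted p = 0.0165), but this call was lost under 4 of 14 alternatives, leaving out siMt2 replicate 2, siNT replicate 1 or siNT replicate 2 and DESeq2 (adjusted p = 0.0796, 0.0557, 0.0833 and 0.059). Gpx2, Gpx3, Gpx5 and Gpx6 were not analysed here.

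The 2 largest rises among the 10 genes were those of a pi-class and a mu-class transferase. Gstp1, the pi-class transferase, had 1059, 1048 and 1091 CPM in the libraries labelled siMt2 and 437, 457 and 431 CPM in the siNT libraries. Its replicates varied by 2.12% (labelled siMt2) and 3.15% (siNT) of the mean, against a 2.41-fold difference between groups (log2 fold change 1.27, SE 0.04, edgeR adjusted p = 1.82e-15). Gstm1, a mu-class transferase, had 43.4, 36.9 and 46.8 CPM in the libraries labelled siMt2 and 16.3, 15.8 and 19.2 CPM in the siNT libraries. The lowest library labelled siMt2 was 1.93 times the highest siNT library, and the fitted difference was 2.45-fold (log2 fold change 1.29, SE 0.13, edgeR adjusted p = 6.94e-08). Of all genes tested, 94.9% had a smaller absolute log2 fold change than Gstp1 and 95.2% a smaller one than Gstm1, and 8.96% passed the threshold with a change beyond 1 on the log2 scale. Gsta4, an alpha-class transferase that conjugates aldehydes from lipid peroxidation, had 9.49, 7.57 and 12.3 CPM in the libraries labelled siMt2 and 7.77, 8.37 and 6.28 CPM in the siNT libraries. The groups overlapped, and with 32 to 65 counts per library a change between 0.922-fold and 1.83-fold was compatible with the data (log2 fold change 0.38, SE 0.24, edgeR adjusted p = 0.195). Mgst1, a membrane-bound transferase of the endoplasmic reticulum and mitochondria, had 36.9, 35.0 and 34.5 CPM in the libraries labelled siMt2 and 29.3, 35.1 and 33.1 CPM in the siNT libraries. Its groups overlapped as well (log2 fold change 0.14, 95% interval -0.09 to 0.37, edgeR adjusted p = 0.311).

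Other transferases of the same families were measured beside them. Of 14 further cytosolic transferase genes found, 10 were tested. Apart from Gstm7, 4 of 9 rose, 1 fell and 4 did not pass, a share of calls near the 50.9% of all genes tested. Gstm2 and Gstm4, which flank Gstm1 in assembly GRCr8, rose by 1.19 (SE 0.08) and 1.31 (SE 0.18) on the log2 scale, beside 1.29 for Gstm1. Gstm2 had 121, 125 and 144 CPM in the libraries labelled siMt2 and 56.5, 59.5 and 54.3 CPM in the siNT libraries, and Gstm4 had 20.3, 21.3 and 19.4 CPM in the libraries labelled siMt2 and 10.1, 6.69 and 7.66 CPM in the siNT libraries (edgeR adjusted p = 1.57e-10 and 5.76e-06). Gstm7 met the filter on low counts in the libraries labelled siMt2 only, so its test is not used. It had 14, 10 and 7 counts in the libraries labelled siMt2 and 0, 1 and 1 in the siNT libraries, given as counts only. Mu-class genes resemble each other, and how reads matching several genes were counted is not stated, so the split of reads among them is uncertain. Gstm3 was not tested: it had 4, 6 and 1 counts in the libraries labelled siMt2 and 100, 5 and 6 in the siNT libraries, where replicate 1 stood far above the rest.

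The omega-class genes moved in opposite directions. Gsto1 rose to 99.9 ± 1.16 CPM in the libraries labelled siMt2, against 80.0 ± 2.35 CPM in the siNT libraries (log2 fold change 0.32, SE 0.07, edgeR adjusted p = 0.000661). Gsto2, known as a dehydroascorbate reductase, fell to 5.61 ± 0.392 CPM in the libraries labelled siMt2, against 13.6 ± 1.05 CPM in the siNT libraries (log2 fold change -1.26, SE 0.21, edgeR adjusted p = 4.02e-05). Gstcd, which encodes a protein with a transferase-like domain, rose (1.11, SE 0.25). Gsta5, Gstt1, Gstt2 and Gstz1 did not pass (log2 fold change 0.74, 0.45, 0.19 and 0.14; edgeR adjusted p = 0.138, 0.292, 0.704 and 0.546), and Gsta5 passed without siNT replicate 1 (log2 fold change 1.21, adjusted p = 0.0471). Gsta2, Gsta3 and Gstt3 had 2 to 4 counts in all. Both further membrane-bound transferases tested rose: Mgst2 had 65.9 ± 3.46 CPM in the libraries labelled siMt2 and 40.9 ± 1.75 CPM in the siNT libraries (log2 fold change 0.67, SE 0.09, edgeR adjusted p = 4.61e-06), and Mgst3 had 12.5 ± 2.53 CPM in the libraries labelled siMt2 and 8.89 ± 0.25 CPM in the siNT libraries (0.51, SE 0.20, adjusted p = 0.0378). The call of Mgst3 was lost under 8 of 14 alternatives, among them leaving out any of siMt2 replicates 1 and 2 and the 3 siNT replicates (adjusted p = 0.0814 to 0.172).

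**Figure D2:**
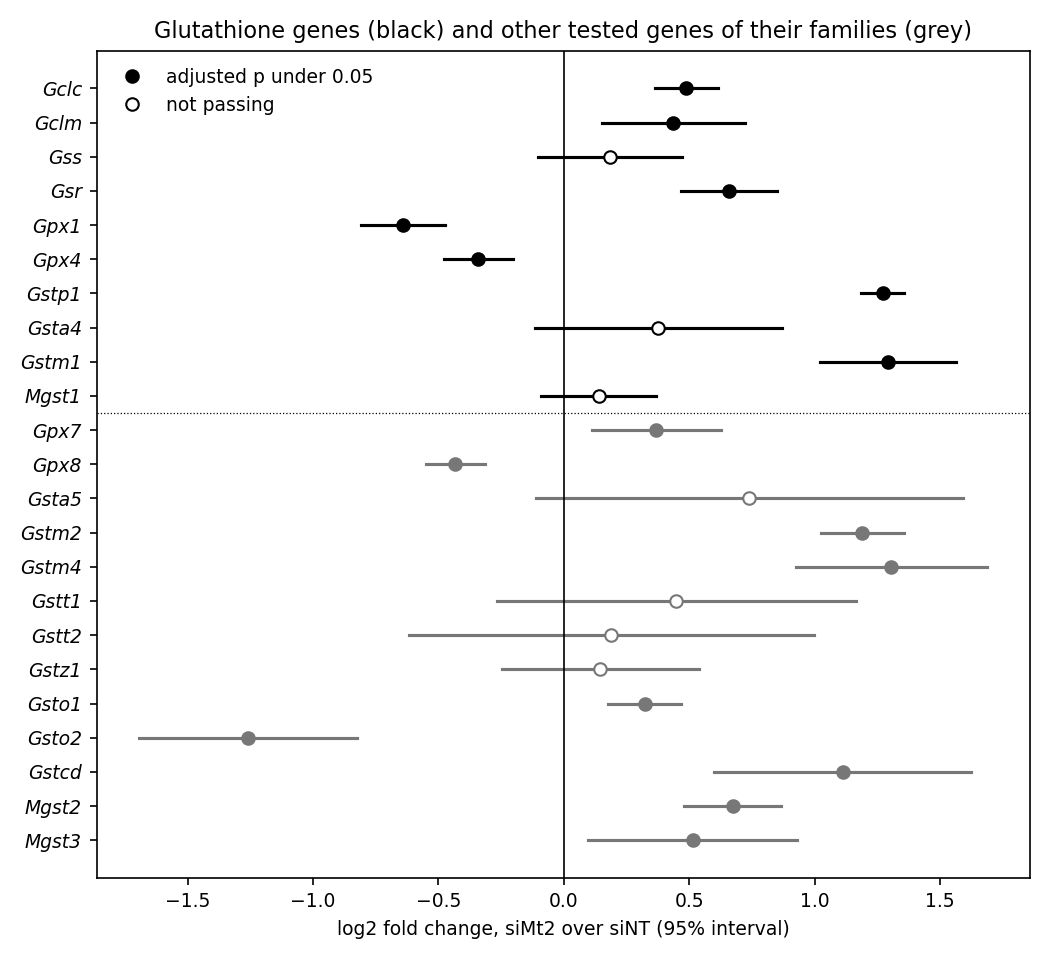
Log2 fold change (libraries labelled siMt2 over siNT) with its 95% interval for the 10 genes (black, upper part) and the other tested peroxidase and transferase genes (grey, lower part) except Gstm7, whose test is not used. Filled circles mark an adjusted p under 0.05: Gstp1, Gstm1, Gstm2 and Gstm4 lie between 1.19 and 1.31, and Gpx1, Gpx4, Gpx8 and Gsto2 lie below 0.

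Promoter sequences of the members from RefSeq (build GRCr8) were searched for the antioxidant response element core TGACNNNGC, the site through which NRF2 acts, and for the AP-1 site TGACTCA, on both strands of the 250 bases before the annotated start. Of the 10 genes, 9 were matched to the table by symbol; Gsr was not, and Gpx4 had 3 alternative starts. The core was present in 2 of the 9, Gstp1 and Gclm, and in 10.1% of 33469 windows of the same length. TGACTCA was present in Gstp1 and in 4.05% of the windows. Shown are Gstp1 and Gclm, with the match in capitals, Gstm1, which rose by 1.29 on the log2 scale without a match, and Gpx1, the deeper fall of the peroxidases; each reads 5′ to 3′ on the strand of the gene.
Gstp1: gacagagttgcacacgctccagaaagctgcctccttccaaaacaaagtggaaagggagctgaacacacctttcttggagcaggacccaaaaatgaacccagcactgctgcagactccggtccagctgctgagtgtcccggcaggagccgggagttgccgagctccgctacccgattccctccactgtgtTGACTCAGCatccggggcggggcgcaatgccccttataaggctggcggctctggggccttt
Gclm: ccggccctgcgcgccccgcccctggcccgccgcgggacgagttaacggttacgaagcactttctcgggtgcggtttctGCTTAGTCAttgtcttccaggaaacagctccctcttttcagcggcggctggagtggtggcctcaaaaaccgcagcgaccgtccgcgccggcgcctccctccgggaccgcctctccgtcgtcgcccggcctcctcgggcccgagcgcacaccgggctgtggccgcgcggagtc
Gstm1: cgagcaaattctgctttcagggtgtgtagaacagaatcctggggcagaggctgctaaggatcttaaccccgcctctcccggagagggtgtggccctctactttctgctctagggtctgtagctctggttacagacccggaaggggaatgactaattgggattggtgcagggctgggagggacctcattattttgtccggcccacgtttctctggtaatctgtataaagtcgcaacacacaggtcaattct
Gpx1: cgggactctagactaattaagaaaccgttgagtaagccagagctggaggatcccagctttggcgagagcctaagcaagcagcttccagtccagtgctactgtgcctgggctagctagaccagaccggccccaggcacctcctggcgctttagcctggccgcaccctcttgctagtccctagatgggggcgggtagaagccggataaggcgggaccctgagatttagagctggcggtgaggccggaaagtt
The windows are chr1:210769706-210769955 on the minus strand for Gstp1, chr2:213031885-213032134 on the plus strand for Gclm, chr2:198343384-198343633 on the minus strand for Gstm1 and chr8:117905212-117905461 on the plus strand for Gpx1. In Gstp1 the match TGACTCAGC begins 61 bases before the start and contains the AP-1 letters, so both motifs describe the same bases. In Gclm the match begins 172 bases before the start and reads TGACTAAGC on the opposite strand. The letters of neither motif occurred in the windows shown for Gstm1 and Gpx1, nor in those of Gclc, Gss, Gpx4, Gsta4 and Mgst1. Bases outside these windows were not searched, so a missing match does not show that a gene lacks the element. A match is a run of letters and not a measured binding site, and binding was not measured here.

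The other genes of the glutathione pathway were taken from a list of 104 genes in 10 roles, of which 89 were found and 75 tested. This list also holds genes of selenoprotein synthesis and of the NRF2 system, and it was chosen with earlier results of these data known. Leaving out Gstm7, 35 of 74 rose, 15 fell and 24 did not pass, where 25.8% of all genes tested were higher and 25.1% lower. The median log2 fold change of the 75, which still include Gstm7, was 0.22. The roles hold few genes each and were not tested as sets, so a count near 50.9% called says nothing particular of a role. Among genes that supply cysteine, 4 of 6 rose and 0 fell. Slc7a11, a subunit gene of the cystine-glutamate antiporter, had 463, 472 and 482 CPM in the libraries labelled siMt2. It had 249, 272 and 282 CPM in the siNT libraries, with no overlap (log2 fold change 0.82, SE 0.05, edgeR adjusted p = 3.97e-11). Slc3a2, which encodes the partner subunit, did not pass, and its groups overlapped (0.08, SE 0.04, edgeR adjusted p = 0.127). The neutral amino acid transporter genes Slc1a4 (0.59, SE 0.06) and Slc1a5 (0.34, SE 0.06) rose, and Cth, which makes cysteine from cystathionine, rose by 0.22 (SE 0.08), a call lost under 7 of 14 alternatives, among them leaving out any library except siMt2 replicate 3 (adjusted p = 0.0512 to 0.122).

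Among 8 genes of glutathione breakdown, 2 rose, 2 fell and 4 did not pass, which matches the share of calls over all genes. Chac1, a cytosolic enzyme that cleaves glutathione, had 69.5, 66.9 and 56.7 CPM in the libraries labelled siMt2 and 142, 144 and 136 CPM in the siNT libraries. All 3 libraries labelled siMt2 lay far below the siNT range (log2 fold change -1.10, SE 0.07, edgeR adjusted p = 1.95e-10), and its paralog Chac2 fell too (-0.68, SE 0.16). Oplah, the oxoprolinase that returns a breakdown product to glutamate, rose to 77.6 ± 3.31 CPM in the libraries labelled siMt2, against 39.3 ± 0.817 CPM in the siNT libraries (log2 fold change 0.99, SE 0.09, edgeR adjusted p = 1.38e-08). Ggt7, of the gamma-glutamyltransferase family, rose as well (0.94, SE 0.16).

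Of 8 genes of NADPH-producing enzymes, 4 rose and 3 fell, where 50.9% of all genes tested passed. Pgd, of the pentose phosphate pathway, rose (log2 fold change 0.62, SE 0.05), whereas Idh1, the cytosolic isocitrate dehydrogenase, and Nnt, the mitochondrial transhydrogenase, fell (-0.64, SE 0.06, and -0.54, SE 0.05). Nnt had 226, 217 and 229.6 CPM in the libraries labelled siMt2 and 328, 325 and 326 CPM in the siNT libraries, which do not overlap. These 3 genes had an edgeR adjusted p of 2.18e-08 or less. Of 9 glutaredoxin and glyoxalase genes, 1 rose and 4 fell, a share of calls near that over all genes: Glrx3, which works in iron-sulfur and iron trafficking, fell by 0.47 (SE 0.04), the mitochondrial Glrx2 fell by 0.41 (SE 0.07) and Esd, which hydrolyses formylglutathione, fell by 0.44 (SE 0.08), all on the log2 scale. Txndc12, an oxidoreductase of the endoplasmic reticulum, rose (0.48, SE 0.06; edgeR adjusted p of the 4 at most 0.000162).

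Of 10 transport genes tested, 5 rose and 2 fell, where 50.9% of all genes tested passed. Abcc4, an exporter whose substrates include glutathione conjugates, had 143, 138 and 149 CPM in the libraries labelled siMt2 and 70.4, 73.9 and 71.9 CPM in the siNT libraries (log2 fold change 0.99, SE 0.07, edgeR adjusted p = 1.46e-10). Slc25a11, the mitochondrial oxoglutarate carrier (1.19, SE 0.12), Abcc3 (0.50, SE 0.11) and Slc25a39, required for mitochondrial glutathione import (0.33, SE 0.08), rose. Of 10 genes that serve selenoprotein synthesis, 5 rose and 1 fell, again near the share of calls over all genes. Sephs2, which makes the selenium donor, had 34.7, 32.4 and 40.8 CPM in the libraries labelled siMt2 and 12.8, 13.4 and 15.8 CPM in the siNT libraries (log2 fold change 1.34, SE 0.14, edgeR adjusted p = 1.31e-07). The selenium carrier gene Selenop (listed under its older symbol Sepp1; 1.08, SE 0.13), its receptor gene Lrp8 (0.74, SE 0.08) and the selenocysteine lyase gene Scly (1.21, SE 0.17) rose. In the NRF2 list 7 of 10 rose and 1 fell, beside 25.8% higher and 25.1% lower over all genes tested. The list mixes regulators with targets, so this count is not read as NRF2 activity, which was not tested. Regulator genes among the 7 included Keap1 (0.45, SE 0.18, edgeR adjusted p = 0.0437), whose groups overlapped, and Bach1 (0.27, SE 0.10). Mafk fell (-0.30, SE 0.08), and Maff and Mafg did not pass. Srxn1, the sulfiredoxin gene, had 145, 127 and 141 CPM in the libraries labelled siMt2 and 49.9, 40.6 and 46.1 CPM in the siNT libraries (log2 fold change 1.59, SE 0.08, edgeR adjusted p = 4.02e-12). Nqo1, Hmox1 and Txnrd1 rose by 0.88 to 1.07 on the log2 scale.

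**Figure D3:**
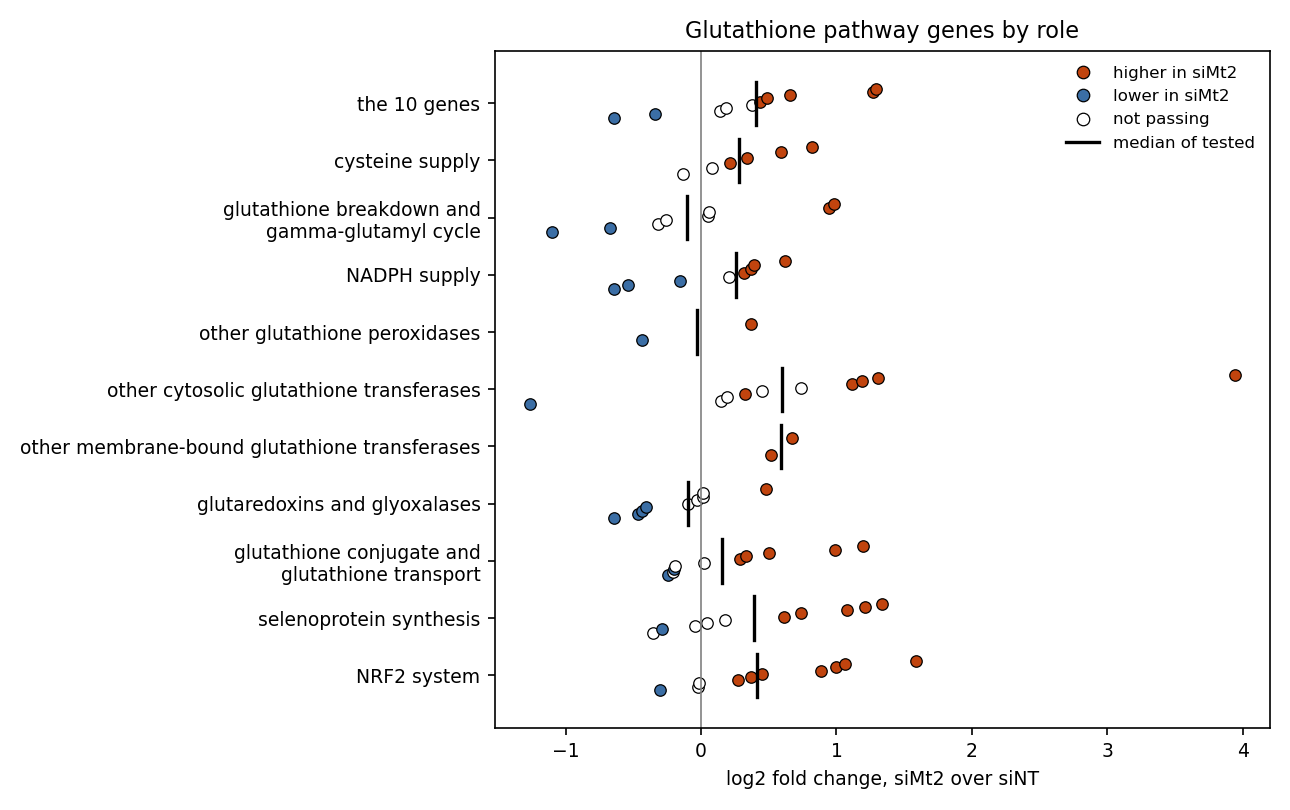
Log2 fold change (libraries labelled siMt2 over siNT) of each tested gene, by role; red circles were higher, blue lower and white circles did not pass an adjusted p of 0.05, and vertical bars mark the median of each row. The median of the 10 genes is 0.41. The point near 3.94 among the cytosolic transferases is Gstm7. It rests on 0 to 1 counts in the siNT libraries, and its call is not used. The bar of that row includes Gstm7 and is therefore not read as a result.

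The libraries did not deviate evenly. Within its group, siMt2 replicate 3, the library with the fewest counts, held the highest value for 7 of the 10 genes and the lowest for 2. Without it, Gclm passed narrowly (log2 fold change 0.30, edgeR adjusted p = 0.049), and the values of Gss and Gsta4, which had not passed, were 0.075 and 0.23 on the log2 scale. The other called genes kept direction and call in all 14 alternatives, with log2 fold changes of 0.45 to 0.53 for Gclc, 0.57 to 0.72 for Gsr, 1.25 to 1.31 for Gstp1, 1.24 to 1.39 for Gstm1, -0.68 to -0.58 for Gpx1 and -0.41 to -0.27 for Gpx4.

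**Figure D4:**
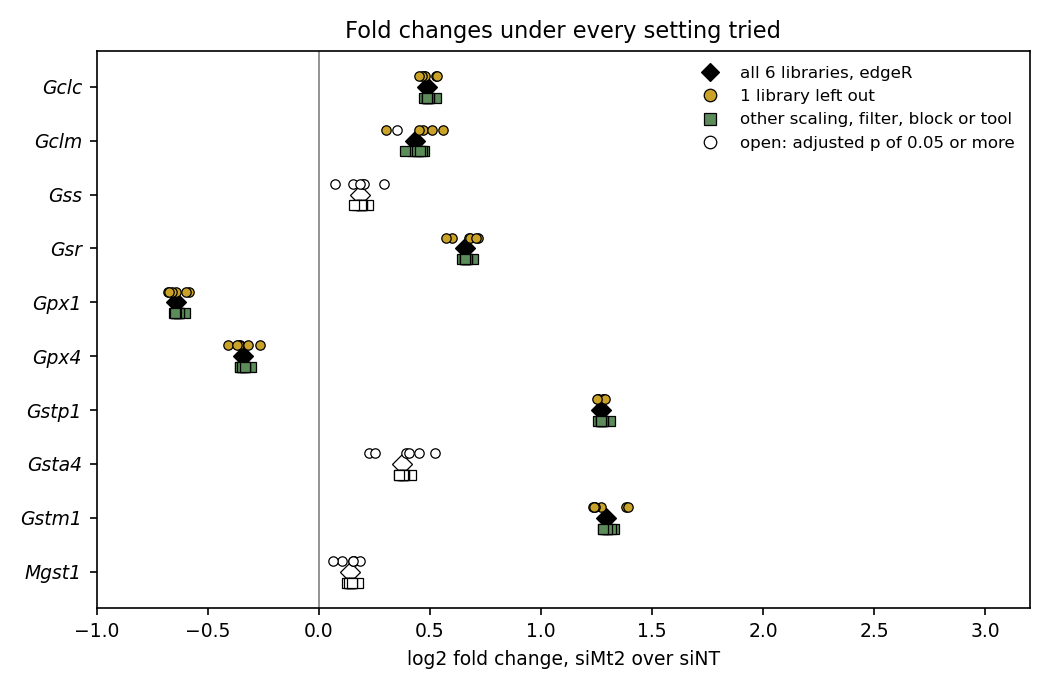
Log2 fold change (libraries labelled siMt2 over siNT) of the 10 genes with all libraries (diamonds), with 1 library left out (circles) and under the other scalings, filters, block and tools (squares); open symbols have an adjusted p of 0.05 or more. The open circle of Gclm, at 0.35, is the fit without siNT replicate 2.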

How the data were processed

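The authors deposited raw counts per gene, 1 file per library; build rn6, HISAT2 2.2.1, Trimmomatic 0.40, DESeq2, limma and featureCounts appear in the submitters' processing notes, without order or settings, and the handling of strand and multimapping reads is not given. Of 18237 rows, 25 carry names turned into dates (0.26% of counts); they stayed in the fits unnamed. Counts were filtered by filterByExpr (minimum count 10), scaled by TMM and compared by edgeR 4.0.16 (R 4.3.3), quasi-likelihood, robust, two-sided, adjusted over all 11726 genes tested. Alternatives were DESeq2 size factors, upper quartile and total scaling, no and stricter filters (10 counts in each library of a group, mean CPM of 1), a replicate block, each library left out, DESeq2 1.42.0 and limma-voom (limma 3.58.1). The procedure was tested on simulated data. At the median gene, the chi-square of same-group library pairs was 1.57 to 2.28 times what counting noise gives. No library was therefore taken as another one sequenced again. This cannot tell separate cultures from separate preparations of the same culture. A count of 3, the limit that 0 allows, equals 0.440 to 1.05 CPM. CPM is not per length, so levels are compared between libraries only.

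The members and lists were chosen with earlier results of these data known. Named genes are the 10 members, Mt2a, tested or detected genes of the Gpx, Gst and Mgst families and the 4 of each role with the smallest adjusted p. Results of 2 listed genes are not reported here. Markers or genes outside this rule were named after their values were seen. Replicate numbers share no stated source, and deviations of same-numbered libraries correlated at -0.0584 to 0.0255, so they were not paired.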

Additional observations from a re-analysis of the deposited data

How the results depend on the processing

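Counts of called genes stayed within 1.5 times their value under all 14 alternatives: among the 10 genes 4 to 5 were higher and 2 lower, and in the pathway list 31 to 38 higher and 12 to 15 lower (Gstm7, which met the filter in 1 group only, is among the higher wherever tested). Among the 10 genes, 139 of 140 values kept direction and call; the exception was Gclm without siNT replicate 2. With the replicate block, which shares only a number, 5 and 2 of the 10 genes, 34 and 15 pathway genes and 2968 and 2929 of all genes were called higher and lower, and Mgst3 lost its call (adjusted p = 0.0656). With 1 library left out, log2 fold changes ran from -0.56 to 0.052 for Mt2a (turned without siNT replicate 2) and from -0.37 to 0.51 for Gstt2 (turned without siMt2 replicate 2 and, at -0.048, without siNT replicate 1); none passed, and the cause was not tested. Upper quartile scaling moved the median of all genes to 0.039, the largest shift among the scalings. Depth limits Gsta4, Gstm7 and other genes with few counts.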

Other observations

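As Gpx1 and Gpx4 encode selenoproteins, the selenoprotein genes were listed after the values of Gpx1 and Gpx4 were seen, as a description with no test of the list. Of 24 listed, 17 were found, 15 were tested, 8 rose and 3 fell; over all genes 50.9% passed. The median log2 fold change was 0.45. Besides Gpx1 and Gpx4, the gene lower was Txnrd3, a thioredoxin reductase (-0.90, SE 0.20). Higher were Selenos, a membrane protein of the endoplasmic reticulum listed as Vimp, with 76.9, 79.5 and 83.8 CPM in the libraries labelled siMt2 and 32.2, 33.0 and 29.4 CPM in the siNT libraries (1.34, SE 0.09), the thioredoxin reductase genes Txnrd1 (0.88, SE 0.04) and Txnrd2 (0.71, SE 0.14), the methionine sulfoxide reductase gene Msrb1 (0.70, SE 0.12), Sephs2, Selenop, Selenon (listed as Sepn1; 0.45, SE 0.06) and Selenom (listed as Selm; 0.58, SE 0.17), whose groups overlapped and whose call was lost without siMt2 replicate 1 or siNT replicate 1 (edgeR adjusted p = 0.0716 and 0.0612).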
